A study of Homo sapiens with 6 samples.

Results

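Long intergenic noncoding RNAs (lincRNAs) are transcripts that arise between protein-coding genes and are not translated. Many of them are processed like mRNAs, and some act in the nucleus on chromatin and transcription while others act in the cytoplasm. They were measured here through the probes of 2 Agilent catalogue series, whose names start with A_19_P and A_21_P and which were designed to lincRNAs. All non-control probes with these prefixes were taken, which gave 459 A_19_P and 939 A_21_P probes, together 1398 of 111019 probes (1.26%). The A_23_P series, designed mostly to mRNAs, served as the comparison and held 11604 probes. In these files the gene name of a spot repeats its probe identifier, so the assignment to lincRNAs rests on the prefix, could not be checked against known transcripts, and no gene is named.

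The cells were K562, an established line from a chronic myeloid leukemia in which the Bcr-Abl fusion kinase is constantly active. Both groups were treated for 12 h, either with the solvent DMSO or with 10 μM imatinib, an inhibitor of this kinase. There were 3 arrays for DMSO and 3 for imatinib, with replicate numbers 1, 2 and 4 in both. The study's methods describe the cells as 3 independent groups, and p-values measure the spread between these samples. A single cell line, dose and time were measured. On slide 1 lay the second DMSO replicate and the imatinib arrays numbered 1 and 2, while the other arrays lay on slide 2. Since the groups were uneven over the slides, slide was a term in every comparison unless stated.

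First, detection of the lincRNA probes was examined. Detection on an array required that 50% or more of a probe's spots carried the software's mark for signal well above background. Of 1398 lincRNA probes, 1059 (75.8%) were detected on all 6 arrays and 191 (13.7%) on none, against 79.9% and 11.0% of A_23_P probes. Over the whole array these shares were 65.4% and 20.6%, so lincRNA probes were detected more often than the array as a whole. However, each lincRNA probe had 2 or 10 spots, while 76243 of the 111019 probes, all custom, had another number. The detection rule therefore did not bear on them equally. In A_33_P, a catalogue series also printed on 2 or 10 spots, the shares were 73.0% and 14.8%. The detected share was 78.8%, 82.5% and 81.0% on DMSO replicates 1, 2 and 4, and 81.0%, 79.7% and 81.6% on the imatinib replicates of the same numbers. These shares overlapped between the groups, so imatinib was not accompanied by a separation in how many lincRNA probes were detected. On the same arrays between 82.2% and 85.3% of A_23_P probes were detected. Within the lincRNA probes the A_19_P and A_21_P series were alike, with 76.0% and 75.6% detected on all arrays.

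The signals of the lincRNA probes were dimmer than those of the A_23_P series. Signals are given as log2 intensity minus the 75th percentile of the array, so 0 is the 75th percentile of all probes. The median lincRNA probe lay at -1.74, -1.65 and -1.85 on DMSO replicates 1, 2 and 4, and at -1.55, -1.54 and -1.65 on imatinib replicates 1, 2 and 4. The groups met at DMSO replicate 2 and imatinib replicate 4, which did not separate, and the other imatinib arrays lay above all DMSO arrays. The median A_23_P probe lay between -0.98 and -0.86 on the 6 arrays. By contrast, the medians of the catalogue series A_33_P (-2.26 to -1.96) and of the custom probes (-3.28 to -2.80) lay below those of the lincRNA probes on each array. At the bright end lincRNA and A_23_P probes came closer, with 90th percentiles of 2.21 to 2.36 for lincRNA probes and 2.27 to 2.87 for A_23_P probes. Signal also depends on how well a probe binds, so these values describe the probe series and not the number of RNA molecules.

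Next, the effect of imatinib on the lincRNA probes was tested. A probe was kept if it was detected on every array of DMSO, of imatinib or of both, which left 1113 lincRNA probes among 78163 probes on the whole array, and 285 lincRNA probes were too dim to be kept. A probe was called changed at an adjusted p under 0.05 (limma with slide as a block, Benjamini-Hochberg over all kept probes) and a fold change over 2. Over the whole array 11.6% of kept probes were called, 5.61% as higher and 5.97% as lower with imatinib. Among lincRNA probes 117 of 1113 (10.5%) were called, close to this background, and 63 (5.66%) rose while 54 (4.85%) fell. Because signals are scaled within each array, a change is relative to the other transcripts. A change in RNA per cell cannot be told apart from a change in the share of cells that hold the transcript.

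The balance of rises and falls moved with the scaling. Rises made up 53.8% of the called lincRNA probes, but 35.0% after median scaling and 41.2% after normexp background correction. Over the whole array the median log2 difference, imatinib minus DMSO, was 0.13, and it was 0.04 after quantile normalization and -0.06 after median scaling. Relative to this shift the lincRNA probes lay near the array as a whole, with a median difference of 0.15, which was 0.09 and -0.04 under the same alternatives. Their quartiles were -0.19 and 0.43.

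Without the filter on dim probes, 122 of all 1398 lincRNA probes were called, again close to the 8.61% of all 110982 probes. Of the 54 kept lincRNA probes that were not detected on all 6 arrays, 20 were called, and over the whole array 27% of 5518 such probes were. The filter kept these probes for their detection in 1 group, so this count is no support for a change. Among the 1059 detected on all arrays, 97 (9.16%) were called, 53 as higher and 44 as lower, where 10.4% of such probes were called over the whole array.

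Compared with A_23_P probes, fewer lincRNA probes were called. Of 9625 kept A_23_P probes, 1507 (15.7%) were called, 575 as higher and 932 as lower. To compare at equal brightness, the kept probes were parted into 10 equal classes of mean signal, and the A_23_P share was weighted to the lincRNA probes in each class. This left the A_23_P share at 15.6%, with 6.48% higher and 9.10% lower. Thus the share of rises was similar in both series (5.66% and 6.48%), and the gap lay in the falls (4.85% and 9.10%). Weighted in the same way, 10.1% of the catalogue series A_33_P and 10.6% of the custom probes were called, which places the lincRNA probes beside these and the A_23_P series above them. The fold threshold decided most calls, since 117 of 119 lincRNA probes and 1507 of 1520 A_23_P probes beyond it were called. The residual SD enters through the adjusted p. Its median was 0.156 over lincRNA probes and 0.15 over A_23_P probes, without matching for brightness. Within the classes of mean signal the medians ran from 0.117 to 0.27 for lincRNA probes and from 0.129 to 0.282 for A_23_P probes. Probes are not replicates, so these shares are given without a test of their difference.

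The gap in falls was seen in the bright probes. In the 5 brighter classes 28 of 607 lincRNA probes fell (4.61%), against 11.7% of A_23_P probes weighted to the same classes, while 4.12% and 4.07% rose. Weighted likewise, 6.15% of A_33_P and 6.69% of custom probes fell there, so the A_23_P series stood apart from all of these. In the 5 dimmer classes 26 of 506 lincRNA probes fell (5.14%) and 38 rose (7.51%), against 6.01% and 9.36% of A_23_P probes. There 4.07% of A_33_P and 3.82% of custom probes fell, and 6.60% and 7.85% rose. The class second from the top held 122 lincRNA probes, of which 10 fell and 0 rose, and 1362 A_23_P probes, of which 202 fell and 37 rose. Of all 7816 kept probes in that class, 762 fell (9.75%) and 174 rose (2.23%), beside 8.20% and 0% of the lincRNA probes. In the brightest class 3 lincRNA probes rose and 3 fell among 120 (2.50% each), where 1.46% and 6.82% of all kept probes did.

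The same pattern was present in the whole distribution of bright probes and on both slides. In the brighter classes the median difference, weighted by class, was 0.13 for lincRNA probes and -0.10 for A_23_P probes. Within slide 1 these medians were 0.14 and -0.07, and within slide 2 they were 0.09 and -0.15, and the slides share no array. In the dimmer classes the medians were 0.20 for lincRNA and 0.19 for A_23_P probes. For the A_33_P series and the custom probes the brighter classes gave 0.11 and 0.08, so the A_23_P series had the lowest median of the 4. The signs depend on the scaling. The difference between the lincRNA and A_23_P medians was 0.226, and after quantile normalization it was 0.202.

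The signal of the bright lincRNA probes relative to A_23_P probes of the same class was then read on each array. It was -0.123, 0.0469 and -0.169 on DMSO replicates 1, 2 and 4, and 0.310, 0.330 and 0.0807 on the imatinib replicates 1, 2 and 4. Every imatinib array lay above every DMSO array, both across and within slides, and the arrays of slide 1 lay above those of slide 2 in each group. In the dimmer classes the same gap ran from -0.0539 to 0.0242, and there imatinib replicate 4 (-0.0272) lay below DMSO replicate 2 (-0.0109).

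The called changes were then described by size. The median rise of the called lincRNA probes was 1.42 on the log2 scale and the median fall was -1.37, and both sizes lie above 1 by the rule for a call. The largest called changes were 4.03 and -2.95 for lincRNA probes and 5.58 and -6.26 for the larger A_23_P series. More than 4-fold changes were called for 30 lincRNA probes (2.70% of those kept), 15 of them higher, where the background over the whole array was 1.96% and the A_23_P share was 2.60%. The 30 probes include some that were not detected on all 6 arrays, among them the one with a rise of 3.22. The filter kept these for their detection in 1 group, so no conclusion is drawn from the share at this size. Adjusted p over the called lincRNA probes ran from 0.000276 to 0.0393 (limma). The called lincRNA probes that rose were dim, with a median signal of -2.01, and those that fell were brighter, with a median of -0.56. The same order was seen over the whole array (-2.41 and -0.09).

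Of the 2 lincRNA series, A_19_P had 35 of 362 kept probes called (9.67%), 15 as higher and 20 as lower. In the A_21_P series 82 of 751 were called (10.9%), with 48 higher and 34 lower. The A_23_P share weighted to either series was 15.6%. Of the 8 largest rises among the called lincRNA probes, all belonged to A_21_P, which held 48 of the 63 called rises. The 8 largest falls were divided between the series. Both lists include probes that were not detected on all 6 arrays and were kept for their detection in a single group. No conclusion is therefore drawn from this order. Whether the series differed was not tested.

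Agreement between the slides was near that of the whole array for the lincRNA probes. The within-slide differences had the same sign for 931 of 1113 probes (83.6%), where 80.2% of all kept probes and 84.9% of A_23_P probes did. Across probes, which are not independent replicates, Pearson's r was 0.868 and Spearman's rho was 0.802. These were 0.832 and 0.746 over the whole array, and 0.91 and 0.866 in A_23_P. All 117 called probes had the same sign on both slides, but so did all 9047 called over the whole array. The calls were made on both slides together, so this is no support. Values did not overlap within either slide, and ran the same way on both, for 486 lincRNA probes higher with imatinib and 267 lower, beside a background of 38.7% and 24.6% of all kept probes. When all 3 arrays of a group were set against all 3 of the other regardless of slide, 262 were wholly higher and 198 wholly lower, with a background of 19.7% and 17.6%. The interaction of slide and imatinib, tested with limma, gave 0 lincRNA probes at an adjusted p under 0.05 (background 0%), and 38 (3.41%) at an unadjusted p under 0.05, where the background was 4.32%. This test had 2 residual degrees of freedom, with a single array of one group on each slide. Its count of 0 therefore does not show that the slides agree.

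The slides themselves differed at 51 lincRNA probes (4.58%; same thresholds, with group as a block), where 6.91% of all kept probes did, and 3 of these were also called for imatinib. Across the 1113 kept lincRNA probes, arrays of the same group correlated with r of 0.991 to 0.995 on one slide and 0.975 to 0.980 between slides. Arrays of different groups on the same slide gave 0.963 to 0.968. No spot of a lincRNA probe was saturated, and precision is limited by the small number of arrays.

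The probes with the largest change in each series were then followed on each array. They were taken from called probes that were detected on all 6 arrays and whose groups did not overlap within either slide. Probe A_21_P0011843 had the largest rise of all lincRNA probes. Its signal was -4.68, -4.64 and -3.95 on DMSO replicates 1, 2 and 4, and -1.01, -0.82 and 0.04 on imatinib replicates 1, 2 and 4. All imatinib arrays lay above all DMSO arrays, and the rise was seen on slide 1 (3.72) as on slide 2 (4.35). The means were -4.42 ± 0.41 and -0.60 ± 0.56 (SD, n = 3 each), and the fitted log2 difference was 4.03 (SE 0.25, adjusted p = 0.000349, limma), or 16.4-fold. After normexp background correction the difference was 2.08. On the linear scale its mean intensity went from 17.1 to 237, so it was close to background with DMSO.

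Among A_19_P probes that met these conditions the largest rise was that of A_19_P00804950. It measured -3.80, -3.76 and -3.87 on DMSO replicates 1, 2 and 4, and -1.93, -1.88 and -1.60 on the imatinib arrays in the same order. The DMSO arrays were close to each other (SD 0.06), and each lay far below every imatinib array (SD 0.18). The fitted difference was 2.05 (SE 0.13, adjusted p = 0.000376, limma), with 1.86 on slide 1 and 2.23 on slide 2, and it was 1.01 after normexp. On the linear scale its mean intensity went from 25.9 to 99.1, so this probe too was dim with DMSO.

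The largest fall among all called lincRNA probes was that of A_19_P00316404, a probe of medium brightness with DMSO. It measured 0.20, -0.60 and -0.18 on DMSO replicates 1, 2 and 4, and -3.36, -3.80 and -2.92 on imatinib replicates 1, 2 and 4. The groups were far apart, and within each group the arrays of slide 1 were the lower ones. The fitted difference was -2.95 (SE 0.18, adjusted p = 0.000348, limma), a 7.74-fold fall, the slides gave -2.98 and -2.92, and normexp gave -1.77. The probe with the next higher catalogue number fell too, by 2.35 (SE 0.16, adjusted p = 0.000393, limma). By contrast, the probe numbered 1 below A_21_P0011843 differed by -0.88 (adjusted p = 0.00257, limma), opposite to the rise of that probe. Whether probes of adjacent numbers lie on a single transcript was not tested.

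In the A_21_P series A_21_P0011910 fell most under the same conditions. It was bright with DMSO, at 2.71, 2.15 and 2.46 on replicates 1, 2 and 4, and lay at -0.08, -0.17 and 0.07 with imatinib. No DMSO array came near an imatinib array. The difference was -2.39 (SE 0.13, adjusted p = 0.000311, limma), a 5.26-fold fall from a mean intensity of 1960 to 332.

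Other lincRNA probes were detected in 1 group only, for which a lower bound of the fold change is given. With imatinib only, 6 probes were detected on all 3 arrays and on no DMSO array, and with DMSO only there were 3. For this, the bright group's mean was divided by a floor for the dim group, taken per array as the dimmest detected signal, or as what the probe itself gave where that was brighter. These were means over the 3 arrays of a group, without a slide term. Where the probe itself was brighter on each array of the dim group, the value is its measured ratio. Of the 6 probes, 5 had bounds from at least 3.82-fold to at least 7.31-fold, and the remaining one had a bound of at least 1.87-fold. With slide as a term, the fitted log2 difference of this last probe was 0.84, a smaller change, and it was not called. For the probes detected with DMSO only, the values were 1.42-fold, a measured ratio, and at least 2.21-fold and 2.42-fold. Among all A_23_P probes 36 (0.310%) were detected with imatinib only and 17 (0.147%) with DMSO only, against 0.429% and 0.215% of lincRNA probes. Over the whole array the shares were 0.417% and 0.25%, so the lincRNA probes were close to the background.

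Finally, the order of catalogue numbers was examined. For probes next to each other in this order, the fitted differences had an r of 0.0726 in A_19_P (361 pairs) and 0.0699 in A_21_P (750 pairs), and for probes 100 places apart it was -0.0198 and -0.0313. In A_23_P the neighbours gave 0.00299. These correlations are weak, so order alone tied few of the lincRNA probes together. Where numbers differed by exactly 1, a choice made after the values were seen, 19 A_19_P pairs gave r of 0.618 and 285 A_21_P pairs gave 0.120, while 17 A_23_P pairs gave -0.375. Of the 19 pairs, 5 held a called probe, and in 2 of them both probes were called in the same direction. The signs agreed in 11 of the 19 pairs (57.9%), no more often than for A_19_P probes 100 places apart (59.2%).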

How the data were processed

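Total RNA of K562 cells was labelled with cyanine 3 and hybridized to Agilent design 062918. Per the file headers and labels, the authors read the arrays one by one with Agilent Feature Extraction (version 10.7.1.1). Its deposited processed signal is a linear intensity that the software had detrended and corrected for background, spots near background carry surrogate values, and arrays were not scaled to each other. The deposited mean and local background intensity of each spot and the 0 or 1 flags of the software were also used.

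Spots marked as outliers were left out, log2 intensities were averaged per probe, and the 75th percentile of each array was subtracted. Slides were read from the file headers. The lmFit and eBayes functions of limma (version 3.58.1, under R 4.3.3) were fitted to 78163 kept probes with group and slide as terms, 3 residual degrees of freedom, and tested on simulated data. The 75th percentile of the signal was 325 to 425 and the local background 17 to 32. For each series, the probe with the largest rise and fall was named, if called, detected on all arrays and without overlap within slides. Alternatives covered scaling, background correction, filters, blocks, single arrays left out and the unmoderated t-test that the study's methods give. The members, lists and tests were chosen with earlier results of these data known. Probe sequences, genes and positions were not analysed here.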

Additional observations from a re-analysis of the deposited data

How the results depend on the processing

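The count of changed lincRNA probes stayed within 1.5 times 117 in 12 of 15 alternatives other than leaving out arrays. It was 51 after normexp (21 higher, 30 lower), 24 with treat, the limma test against a fold of 2 (13 higher, 11 lower), and 389 with no fold threshold (227 higher, 162 lower), the latter pair by construction. The methods' t-test gave 117 at an unadjusted p under 0.05 and 78 (41 higher) after Benjamini-Hochberg. The A_23_P share at equal brightness, 15.6% as reported, was 8.52% after normexp, 3.99% with treat, 40.4% with no fold threshold and 9.99% with the adjusted t-test. The lincRNA share stayed below it in every alternative run, with a difference (lincRNA minus A_23_P, in percentage points) of -2.98 in the adjusted t-test and -1.83 with treat. The median difference of the lincRNA probes was -0.0389 after median scaling, 0.0861 after quantile normalization and 0.245 without the slide block, also in the methods' t-test. The difference between lincRNA and A_23_P medians in the brighter classes, 0.226, was 0.161 to 0.335 in the 13 alternatives. The cause of these shifts was not tested.

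When single arrays were left out, 109 to 125 lincRNA probes changed (59 to 68 higher, 44 to 57 lower), with an A_23_P share of 13.9% to 16.3%, a share difference of -5.35 to -3.98, a median difference of 0.145 to 0.169 and a bright-class difference of 0.210 to 0.240. The 4 named probes kept their direction and stayed called in all 20 alternatives, with adjusted p between 1.77e-05 and 0.0209, but after normexp 3 of them had a fold smaller by over 1.5 times. Detection on all arrays was 994 to 1204 probes over the other detection rules. No pairing was read from the replicate numbers, because no label states one. Deviations from the group means correlated at -0.337 for number 1, 0.592 for number 2 and 0.587 for number 4. The 2 arrays of number 2 shared a slide, as did those of number 4, but not those of number 1. These correlations therefore cannot tell pairing from slide. With the replicate block and no slide block 125 lincRNA probes changed and their median difference was 0.245, and with both blocks 121 changed. Counts by direction, the differences from A_23_P, the bright classes and exact neighbours in number were added after seeing the data. Dim probes allow only a bound.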

Other observations

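The lincRNA probes fell into blocks of catalogue numbers, which were parted after the values were seen and are given without a test. In A_19_P, numbers 315459 to 329711 held 306 probes with a median signal of -2.01, and 14 of 228 kept probes were called (6.14%). Numbers 800006 to 813347 held 153 probes that were brighter, with a median of -0.86, and 21 of 134 were called (15.7%). At equal brightness the A_23_P shares were 15.5% and 15.6%, so only the upper block was near the A_23_P series. In A_21_P, 13.1% of 176 kept probes numbered up to 967 were called, 13.8% of 87 between 1133 and 9932, and 9.63% of 488 from 10073 on. Beside these shares, 15.4%, 15.4% and 15.7% of A_23_P probes were called at equal brightness, and 11.6% over the whole array. In the middle range 10 of the 12 called probes rose, where 48.4% of the calls over the whole array were rises.

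In the catalogue series a part of the probes was printed on 10 spots in place of 2. Of the 78243 custom probes, 76243 had another number of spots. Of the 57 kept lincRNA probes with 10 spots 2 were called (3.51%), against 115 of 1056 with 2 spots (10.9%), while the residual SD was 0.139 and 0.157. In A_23_P the corresponding shares were 16.1% and 15.6%. Over all kept probes of any spot number 11.6% were called, and an effect of spot number was not tested.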
